A study of Bos taurus with 18 samples.

Results

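Heat shock proteins and DnaJ proteins are the cell's general protein-folding machinery, and their RNA was followed through the preovulatory follicle of the cow. The members are all genes whose array symbol starts with HSPA, HSPB, HSPD, HSPE, HSPH, HSP90 or DNAJ, and 47 of the 9155 genes with a symbol on the array met that rule. The rule uses symbols only, with no measured value. It also takes in HSPBP1 and HSPBAP1, which are partners of chaperones and not chaperones themselves.

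Each of 6 cows gave 1 dominant follicle. The follicles of cows A, B and C were taken after the surge of luteinising hormone (LH), 22 h after GnRH was given to induce it, and those of cows D, F and G before the surge. From each follicle came theca, aspirated antral granulosa and membrane-associated granulosa, so that 18 Affymetrix expression arrays fall into 6 groups of 3. The replicates are separate cows. No other treatment is named in the labels, and breed and age are not given in the sources used here.

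As background, HSP70 proteins bind and release unfolded stretches of other proteins. J-proteins of the DNAJ family bring them their clients and start their ATP cycle, and exchange factors end it. HSP90 takes over signalling proteins and steroid hormone receptors at a later step of folding. Each compartment has its own set, with HSPA5 and HSP90B1 in the endoplasmic reticulum and HSPA9 and the HSPD1 and HSPE1 chaperonin in mitochondria, while small heat shock proteins hold unfolded proteins without using ATP. The preovulatory follicle secretes hormones and matrix and is remodelled within about a day of the LH surge, and granulosa and theca then turn into the luteal cells.

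All values are log2 signals, and a level is read within 1 probe set only, since probes differ in brightness. A gene with several probe sets is read from the one with the highest mean. Differences are given as log2 difference ± standard error from limma, with n = 3 cows a group. Adjusted p is limma's, corrected over all 24016 probe sets by the Benjamini-Hochberg method, and a gene is called below 0.05. The standard error uses a spread shared by all groups of a fit. Of the 47 genes, 42 lay above 4.62 on every array, the level under which the dimmest probe sets fall. HSPB3 and DNAJC22 lay below it on all 18 arrays, HSPA12B on 11, HSPB6 on 8 and DNAJC6 on 15. No member was left out of the test for its level.

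In granulosa after LH, RNA of several cytosolic partners of HSP70, of HSP90AA1, of the small heat shock protein HSPB1 and of the mitochondrial DNAJA3 was higher, while called chaperones of the endoplasmic reticulum were all lower. In theca a single member was called. In membrane granulosa after LH, 8 members were called higher and 3 lower, at a median difference of 0.00. That is 17% and 6.38% of the members, where 2413 of 24016 probe sets (10%) were called higher and 10.9% lower, at a median of -0.05. With 1 probe set for each of the 9155 genes, as for the members, the shares were 13.1% and 12.9%. In antral granulosa 6 members were called higher and 8 lower, with a median of -0.03, against 10.3% and 12.2% of all probe sets, a median of -0.01, and 12.6% and 16.1% of all genes. In theca no member was called higher and 1 lower, at a median of -0.01, where 1.79% and 2.12% of all probe sets and 2.34% and 2.85% of all genes were called. By gene, 6 members rose in both granulosa populations, DNAJC9 fell in both, DNAJC18 fell in all 3 populations, 9 were called in 1 granulosa population only, and 30 were called nowhere.

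**Figure D1:**
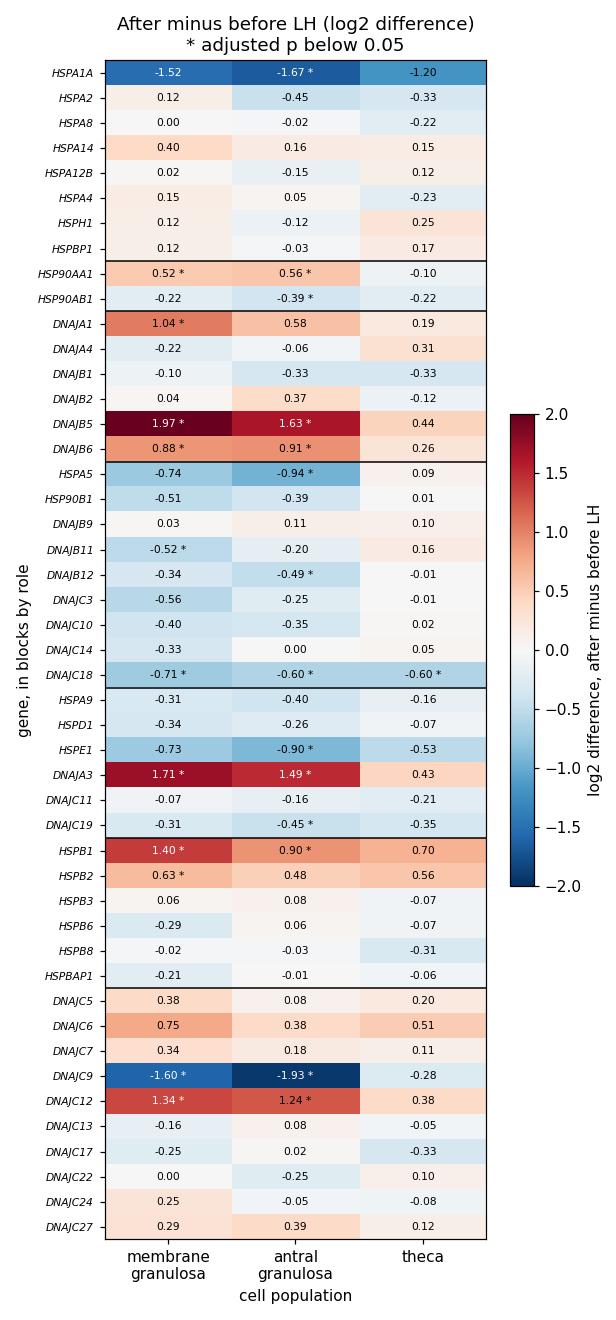
Log2 difference after minus before LH (colour and printed value) of each of the 47 genes, in blocks by role, in membrane granulosa, antral granulosa and theca; an asterisk marks adjusted p below 0.05, and genes below 4.62 are drawn as fitted. DNAJB5, DNAJA3, HSPB1 and DNAJC12 stand out as higher, and DNAJC9 and HSPA1A as lower, while the theca column holds 1 asterisk.

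Several things moved with LH on the same arrays. The summed level of 8 granulosa markers was 14.81 to 14.97 in membrane granulosa after LH, against 16.40 to 16.56 before, and 14.72 to 14.84 in antral granulosa after LH, against 16.23 to 16.29 before. In theca that sum was 14.23 to 14.38 after LH and 14.88 to 15.51 before, and CYP19A1, the aromatase of granulosa, averaged 3.97 in theca after LH and 10.29 before. In membrane granulosa 7 of these 8 markers were called lower after LH and 0 higher, by unequal steps. There CYP19A1 averaged 4.66 after LH and 13.73 before, INHBA 9.86 and 14.74, and INHA 14.28 and 14.62. The summed level of 5 theca markers was 14.37 to 14.82 in theca after LH and 15.27 to 15.50 before. In membrane granulosa it was 12.47 to 13.80 after LH and 11.66 to 14.45 before, and in antral granulosa it was 10.42 to 12.30 after LH and 10.83 to 11.40 before. Of these 5 markers, 3 were called lower after LH in membrane granulosa, 2 in antral granulosa and 3 in theca, and 0 higher. LHCGR, one of them, averaged 5.52 in membrane granulosa after LH and 9.63 before, and 8.57 in theca before LH. INSL3, a theca hormone, ran from 12.23 to 13.32 in membrane granulosa after LH and from 10.87 to 14.04 before. In antral granulosa 3 of 6 fibroblast markers and 2 of 5 smooth muscle markers were also called higher after LH. There the fibroblast sum was 9.44 to 11.55 after LH and 8.66 to 8.93 before, and the smooth muscle sum 8.11 to 8.94 after LH and 8.05 to 8.29 before. COL3A1, a collagen, averaged 7.35 in antral granulosa after LH and 3.91 before, and ACTA2, smooth muscle actin, 6.08 after LH and 4.21 before, both below 4.62 on all arrays before LH. MYH11, also of the smooth muscle list, went the other way there, averaging 6.88 after LH and 7.41 before, and was not called. In membrane granulosa the fibroblast sum was 12.65 to 14.25 after LH and 11.21 to 13.08 before, with no fibroblast marker called. There 1 of 5 leukocyte markers was called higher. The leukocyte markers were mixed, as CD14 averaged 7.03 there after LH and 4.33 before, and PTPRC 6.75 after LH and 7.89 before. In theca 1 of 5 smooth muscle markers was called lower, and 1 of 6 endothelial and 1 of 5 leukocyte markers higher. The part of these markers in the differences of the chaperones was not tested, and in such bulk samples fewer cells of a type cannot be told apart from less RNA per cell. Cow C stood apart from the others on the third principal component (6.3% of the variance), and results that change without its arrays are named below.

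The cytosolic HSP70 group holds 8 genes. Its stress-inducible member is HSPA1A, the form that cells make after heat or damage. In antral granulosa HSPA1A stood at 8.67, 9.31 and 9.57 in cows A, B and C after LH, against 11.94, 10.33 and 10.29 in cows D, F and G before LH. The groups did not overlap, and cow D was the highest before LH. HSPA1A fell by 1.67 on the log2 scale there (-1.67 ± 0.55, adjusted p = 0.0386), a 3.19-fold lower signal.

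In membrane granulosa HSPA1A was at 9.18, 10.15 and 9.97 after LH, against 12.78, 10.78 and 10.30 before LH. The groups did not overlap there either, but cow D lay at least 2 log2 units above the other cows before LH, and the difference was not called (-1.52 ± 0.55, adjusted p = 0.0625). In theca its values were 9.63, 10.33 and 9.78 after LH and 11.51, 10.94 and 10.88 before LH, again without overlap and not called (-1.20 ± 0.55, adjusted p = 0.31). On dropping cow D the membrane difference shrank to -0.77 and was not called (adjusted p = 0.132). It was called with the mean of its probe sets (-1.42, adjusted p = 0.0153), on dropping cow G (-2.01, adjusted p = 0.0339), with the dimmest probe sets left out (0.0472) and with the cow as a random block (0.0374). The antral call was lost when cow A, B, C or F was dropped (adjusted p = 0.0563 to 0.171).

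The symbol HSPA1A covers 2 gene IDs of near-identical genes on this array, so the signal of its 6 probe sets cannot be assigned to 1 copy. The other 5 probe sets had lower values after LH in both granulosa populations than before LH. All 5 were called in antral granulosa, with log2 differences from -0.79 (adjusted p = 0.00875) to -2.68 (adjusted p = 3.74e-06). In membrane granulosa 3 of the 5 were called, at -0.89 (adjusted p = 0.0209), -2.01 (adjusted p = 8.41e-05) and -0.86 (adjusted p = 0.00518). For the probe set read above, the difference in LH effect, theca minus membrane granulosa, was 0.32 ± 0.39 and not called (adjusted p = 0.699). The probe set with the steepest fall gave 1.43 (adjusted p = 0.00126), but it was picked for its fall in granulosa, which favours such a difference.

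The constitutive member HSPA8, which serves folding in unstressed cells, gave another picture. It read 13.22, 13.41 and 13.69 in membrane granulosa after LH, against 13.43, 13.46 and 13.43 before LH, and the groups overlapped. Its differences were -0.00 ± 0.17 in membrane granulosa, -0.02 ± 0.17 in antral granulosa and -0.22 ± 0.17 in theca, with adjusted p of 0.989, 0.952 and 0.627. HSPA8 values after and before LH overlapped in antral granulosa and in theca as well.

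HSPH1 and HSPA4, HSP110-type exchange factors for HSP70, were called in no LH comparison. HSPH1 was 9.49, 9.83 and 10.92 in membrane granulosa after LH, against 10.11, 9.81 and 9.96 before LH, with cow C above all others (0.12 ± 0.35, adjusted p = 0.867). HSPA4 was 10.55, 10.44 and 10.95 in membrane granulosa after LH, against 10.32, 10.48 and 10.70 before LH (0.15 ± 0.23, adjusted p = 0.725). HSPA14, an HSP70 found at ribosomes, was 9.72, 9.61 and 9.85 there after LH, against 9.47, 9.38 and 9.12 before LH. Those HSPA14 groups did not overlap, yet the difference was not called (0.40 ± 0.17, adjusted p = 0.104). HSPA2 and HSPBP1 ranged from -0.45 to 0.17 in log2 difference over the 3 populations and were not called. HSPA12B, with a difference of 0.12 ± 0.24 in theca (adjusted p = 0.887), had granulosa means below 4.62 and was not called.

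The cytosolic HSP90 pair is made of HSP90AA1, the inducible form, and HSP90AB1, the constitutive one. In membrane granulosa HSP90AA1 was 13.27, 13.13 and 13.39 after LH, against 12.83, 12.69 and 12.70 before LH. In antral granulosa it was 13.08, 13.13 and 13.26 after LH, against 12.60, 12.45 and 12.74 before LH. All 6 granulosa values after LH lay above all 6 before LH.

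HSP90AA1 rose by 0.52 ± 0.11 in membrane granulosa (adjusted p = 0.00302) and by 0.56 ± 0.11 in antral granulosa (adjusted p = 0.00159). In theca it was 12.77, 12.88 and 12.95 after LH and 13.01, 12.86 and 13.03 before LH, overlapping (-0.10 ± 0.11, adjusted p = 0.758). A second, dimmer probe set of HSP90AA1 gave 1.04 (adjusted p = 0.287) in membrane and 0.16 (adjusted p = 0.9) in antral granulosa. With the mean of its probe sets neither rise was called (0.78 with adjusted p = 0.123, and 0.36 with adjusted p = 0.52).

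HSP90AB1 went the other way in antral granulosa, with 12.13, 12.35 and 12.58 after LH, against 12.83, 12.68 and 12.72 before LH. The groups did not overlap, and HSP90AB1 fell by 0.39 on the log2 scale (-0.39 ± 0.11, adjusted p = 0.0199). Without cow A, B, D or G the fall was not called (adjusted p = 0.0672 to 0.157), nor with only the 6 arrays compared (0.127). In membrane granulosa and theca its difference was -0.22 ± 0.11 each and was not called (adjusted p = 0.197 and 0.38).

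Among the 6 class A and B J-proteins of cytosol and nucleus, which hand clients to HSP70, 3 rose in membrane granulosa and 2 in antral granulosa, and none was called lower in an LH comparison. That is 3 and 2 of only 6 genes, where 13.1% and 12.6% of all genes were called higher. Their median difference was 0.46 in membrane and 0.47 in antral granulosa. DNAJB5 had the largest of these differences. It was 7.91, 7.75 and 6.95 in membrane granulosa after LH, against 5.45, 5.86 and 5.40 before LH.

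In antral granulosa DNAJB5 was 7.53, 7.26 and 7.35 after LH, against 6.16, 5.51 and 5.56 before LH, and in neither population did the groups come close to overlap. DNAJB5 rose by 1.97 ± 0.28 in membrane granulosa (adjusted p = 8.62e-05), 3.9-fold, and by 1.63 ± 0.28 in antral granulosa (adjusted p = 4e-04). A second probe set of DNAJB5, below 4.62 in each group mean, gave -0.05 (adjusted p = 0.831) and 0.14 (adjusted p = 0.523), and with the mean of both the rises were 0.96 and 0.89, still called (adjusted p = 0.000302 and 0.000518). In theca the brighter probe set was 5.68 to 6.26 after LH and 5.25 to 6.10 before LH, with overlap (0.44 ± 0.28, adjusted p = 0.509).

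DNAJB6, a J-protein known for keeping polyglutamine proteins from aggregating, was 11.00, 10.40 and 10.65 in membrane granulosa after LH, against 9.82, 9.97 and 9.62 before LH. In antral granulosa it was 10.96, 10.72 and 10.90 after LH, against 9.74, 10.05 and 10.05 before LH. Every granulosa value after LH was above every one before LH. DNAJB6 rose by 0.88 ± 0.15 in membrane granulosa (adjusted p = 0.000418) and by 0.91 ± 0.15 in antral granulosa (adjusted p = 0.000267), with 0.26 ± 0.15 in theca (adjusted p = 0.453).

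DNAJA1, a major partner of cytosolic HSP70, was 8.28, 8.20 and 8.71 in membrane granulosa after LH, against 7.70, 7.73 and 6.63 before LH, where cow G was the lowest. It rose there by 1.04 ± 0.27 (adjusted p = 0.00993), but without cow G the difference was 0.68 and not called (adjusted p = 0.0771), and it was not called with only the 6 arrays compared (0.0775). In antral granulosa its difference was 0.58 ± 0.27 and was not called (adjusted p = 0.14). DNAJB1, the heat-inducible HSP40, was 8.85, 8.68 and 9.04 in membrane granulosa after LH and 9.17, 9.00 and 8.71 before LH, with overlap. DNAJB1 was called in none of the 3 populations (-0.10, -0.33 and -0.33, with adjusted p of 0.78, 0.273 and 0.491), and neither were DNAJA4 and DNAJB2.

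**Figure D2:**
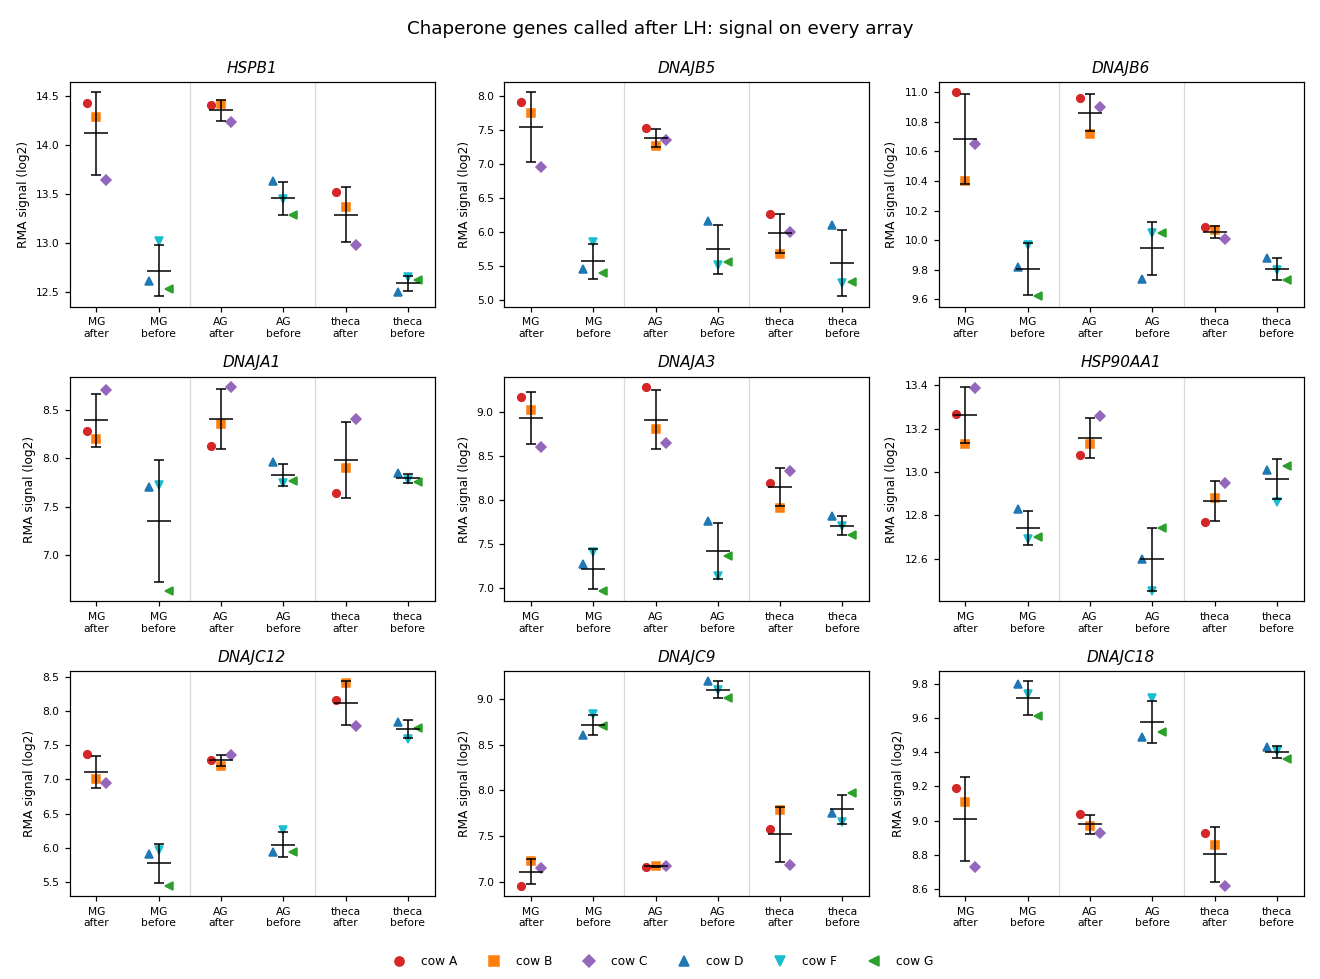
Log2 signal of 9 genes called in at least 1 LH comparison, in membrane granulosa (MG), antral granulosa (AG) and theca, with after LH left of before LH; points are cows, and bars are the mean ± SD of 3 cows. In both granulosa populations DNAJB5, DNAJA3 and DNAJC12 after LH lie clear above before LH and DNAJC9 lies clear below. In theca DNAJB5, DNAJC12 and DNAJC9 overlap between the times, and DNAJA3 does not.

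Of the 9 chaperones and J-proteins of the endoplasmic reticulum, none rose in any population. In membrane granulosa 2 fell, at a median difference of -0.51 for the group, in antral granulosa 3 fell (median -0.35), and in theca 1 fell (median 0.02). Of all genes 12.9%, 16.1% and 2.85% were called lower in these populations, against 2, 3 and 1 of these 9 genes. HSPA5, known as BiP, is the HSP70 of this compartment and holds the sensors of the unfolded protein response in check. In antral granulosa HSPA5 was 11.29, 11.29 and 11.99 after LH, against 12.29, 12.50 and 12.61 before LH.

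In membrane granulosa HSPA5 was 12.06, 11.71 and 12.76 after LH, against 12.85, 12.58 and 13.33 before LH, and in theca 11.95, 12.01 and 12.39 after LH, against 12.03, 11.90 and 12.14 before LH. The antral groups did not overlap, and the membrane groups overlapped through cow C, the highest after LH. The theca groups overlapped in part, with cow C after LH above all cows before LH. HSPA5 fell by 0.94 on the log2 scale in antral granulosa (-0.94 ± 0.26, adjusted p = 0.0147), a call lost if cow A, B, F or G was dropped (adjusted p = 0.053 to 0.0957). In membrane granulosa -0.74 ± 0.26 was not called (adjusted p = 0.0534); with cow C dropped the difference was -1.03 and called (adjusted p = 0.00176). It was also called under 7 other alternatives, among them quantile normalization (0.0452) and the cow as a random block (0.0336). The replicate block, which groups unrelated cows by replicate number, is counted among these 7. The theca difference was 0.09 ± 0.26 (adjusted p = 0.927).

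A second HSPA5 probe set gave -1.40 in antral granulosa (adjusted p = 0.0153) and -0.94 in membrane granulosa (adjusted p = 0.104). HSP90B1, the HSP90 of the endoplasmic reticulum, was 11.83, 11.75 and 11.83 in membrane granulosa after LH, against 12.49, 11.86 and 12.60 before LH. These groups did not overlap, though cow F lay close to the cows after LH, and the difference was not called (-0.51 ± 0.20, adjusted p = 0.0804). Without cow F it was -0.74 in membrane granulosa (adjusted p = 0.00855) and -0.54 in antral granulosa (adjusted p = 0.0409), both called.

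DNAJB11, a J-protein of the lumen that works with HSPA5, was 8.04, 7.75 and 8.14 in membrane granulosa after LH, against 8.61, 8.30 and 8.58 before LH. It fell there by 0.52 on the log2 scale (-0.52 ± 0.16, adjusted p = 0.0271), a call lost without cow A, B, D or G (adjusted p = 0.0878 to 0.13) and with only the 6 arrays compared (0.076). DNAJB12, a J-protein anchored in the membrane of the endoplasmic reticulum, was 8.09, 7.54 and 7.96 in antral granulosa after LH, against 8.49, 8.23 and 8.36 before LH. The groups did not overlap, and DNAJB12 fell by 0.49 on the log2 scale (-0.49 ± 0.17, adjusted p = 0.0464). That call was lost on dropping cow B, C, D or G (0.0722 to 0.226), after quantile normalization (adjusted p = 0.0844) and with eBayes trend and robust settings (adjusted p = 0.0567), and with only the 6 arrays compared (0.0959). A second DNAJB12 probe set was called lower in both granulosa populations (-0.57 with adjusted p = 0.00253 in membrane and -0.41 with adjusted p = 0.0191 in antral granulosa).

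DNAJC18, another membrane J-protein of this compartment, was the only member called in all 3 populations. It was 9.19, 9.11 and 8.73 in membrane granulosa after LH against 9.80, 9.74 and 9.61 before LH, and 9.04, 8.97 and 8.93 in antral granulosa after LH against 9.49, 9.72 and 9.52 before LH. In theca it was 8.93, 8.86 and 8.62 after LH, against 9.43, 9.41 and 9.36 before LH. In none of the populations did the groups overlap.

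DNAJC18 fell by 0.71 on the log2 scale in membrane granulosa (adjusted p = 0.00085), by 0.60 in antral granulosa (adjusted p = 0.00274) and by 0.60 in theca (adjusted p = 0.0146), each with a standard error of 0.13. The theca call was lost on dropping any cow from before LH (0.0639 to 0.0906) and with only the 6 arrays compared (0.0773). DNAJC3, an inhibitor of the kinase that slows translation under folding stress, was 8.27, 8.97 and 9.41 in membrane granulosa after LH and 9.48, 9.23 and 9.64 before LH (-0.56 ± 0.29, adjusted p = 0.199). DNAJB9, a J-protein that targets HSPA5 to the stress sensor IRE1, was 9.72, 9.57 and 10.33 there after LH and 10.13, 9.60 and 9.79 before LH (0.03 ± 0.24, adjusted p = 0.947). Both overlapped, and DNAJC10 and DNAJC14 were not called either.

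**Figure D3:**
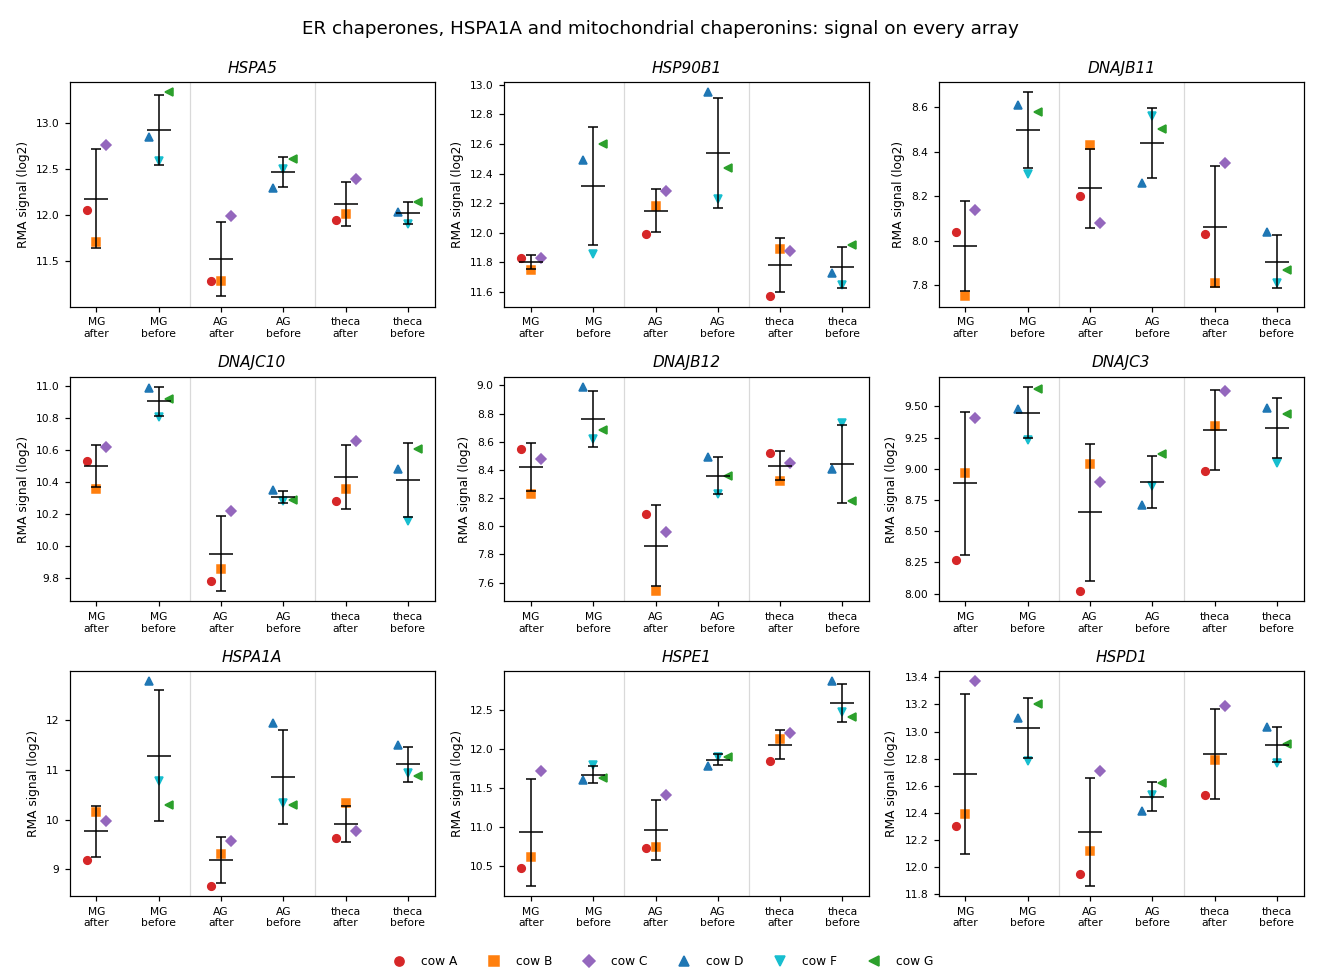
Log2 signal of 6 endoplasmic reticulum members, HSPA1A, HSPE1 and HSPD1 in membrane granulosa (MG), antral granulosa (AG) and theca, with after LH left of before LH; points are cows, and bars are the mean ± SD of 3 cows. HSPA5 after LH lies below before LH in both granulosa populations except for cow C in membrane granulosa, and the theca values overlap.

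The wider set of genes for folding in the endoplasmic reticulum and the unfolded protein response had 25 of 32 listed genes on the array, none of them a member. In membrane granulosa 14 fell (56%) and 1 rose (median -0.45), in antral granulosa 12 fell (48%) and 2 rose (median -0.56), and in theca 1 fell and none rose (median -0.11). Of all genes 12.9% were called lower and 13.1% higher in membrane granulosa, 16.1% and 12.6% in antral granulosa, and 2.85% and 2.34% in theca. The list was chosen with earlier results of these data known. HERPUD1, which helps degrade misfolded proteins, averaged 10.73 in membrane granulosa after LH and 12.85 before LH (-2.12 ± 0.27, adjusted p = 3.23e-05). It averaged 9.96 in antral granulosa after LH and 12.31 before LH (-2.35 ± 0.27, adjusted p = 9.42e-06). SIL1, the exchange factor of HSPA5, averaged 7.03 in membrane granulosa after LH and 9.07 before LH (-2.04 ± 0.30, adjusted p = 0.00013). In antral granulosa SIL1 averaged 6.64 after LH and 9.24 before LH (-2.60 ± 0.30, adjusted p = 9.94e-06).

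SEC63, the J-protein of the translocon, fell in membrane granulosa (-1.02 ± 0.19, adjusted p = 0.001), and SEC61B, a subunit of the channel itself, fell in antral granulosa (-0.98 ± 0.12, adjusted p = 1.32e-05). The exceptions were PDIA5, a disulfide isomerase, which rose by 0.66 in membrane and 1.27 in antral granulosa, and DDIT3, a transcription factor of the stress response, which rose by 0.67 in antral granulosa. In theca the gene that fell was PDIA5 (10.08 after LH against 10.94 before LH, adjusted p = 0.0207).

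The mitochondrial members divided. DNAJA3, the J-protein of mitochondrial HSP70, was 9.16, 9.02 and 8.60 in membrane granulosa after LH, against 7.28, 7.41 and 6.97 before LH. In antral granulosa it was 9.28, 8.80 and 8.65 after LH, against 7.76, 7.14 and 7.37 before LH. The lowest value after LH was above the highest before LH in both.

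DNAJA3 rose by 1.71 ± 0.20 in membrane granulosa (adjusted p = 1.76e-05), 3.27-fold, and by 1.49 ± 0.20 in antral granulosa (adjusted p = 5.5e-05). In theca it was 8.19, 7.91 and 8.33 after LH and 7.82, 7.71 and 7.60 before LH. These did not overlap either, but 0.43 ± 0.20 was not called (adjusted p = 0.323).

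HSPE1, the lid of the mitochondrial chaperonin, went the other way in antral granulosa, with 10.73, 10.75 and 11.41 after LH, against 11.78, 11.90 and 11.90 before LH. It fell there by 0.90 on the log2 scale (-0.90 ± 0.26, adjusted p = 0.0221), and the call was lost on dropping any cow but C (0.0616 to 0.1). In membrane granulosa it was 10.47, 10.61 and 11.72 after LH, against 11.60, 11.79 and 11.62 before LH. Cow C lay among the cows before LH, and the difference of -0.73 ± 0.26 was not called (adjusted p = 0.0624); on dropping cow C it was -1.13 and called (adjusted p = 0.000113), as it was under 5 other alternatives (0.0306 to 0.0496). The replicate block, which groups unrelated cows by replicate number, is counted among these 5. In theca -0.53 ± 0.26 was not called (adjusted p = 0.371), and without cow C the difference was -0.60 and called (adjusted p = 0.0412).

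HSPD1, the barrel that HSPE1 closes, was 12.30, 12.39 and 13.37 in membrane granulosa after LH, against 13.10, 12.78 and 13.20 before LH, with cow C above all cows before LH (-0.34 ± 0.26, adjusted p = 0.411). Without cow C it fell in membrane granulosa (-0.68, adjusted p = 0.00492) and in antral granulosa (-0.48, adjusted p = 0.0333). HSPA9, the mitochondrial HSP70, was 10.02, 9.95 and 10.60 in membrane granulosa after LH, against 10.38, 10.54 and 10.57 before LH. Cow C was again the highest after LH, and HSPA9 was called only without it (-0.31 with adjusted p = 0.253 with all cows, and -0.51 with adjusted p = 0.0101 without cow C in membrane granulosa; -0.42 with adjusted p = 0.0277 without cow C in antral granulosa).

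DNAJC19, a J-protein of the import motor, was 9.27, 9.06 and 9.18 in antral granulosa after LH, against 9.63, 9.68 and 9.55 before LH. It fell by 0.45 on the log2 scale (-0.45 ± 0.14, adjusted p = 0.0271) with no overlap, but a dimmer probe set gave 0.38 (adjusted p = 0.548), so that the probe sets disagree. With their mean the difference was -0.03 (adjusted p = 0.926), and without cow B, D or F the call was lost (adjusted p = 0.0525 to 0.139). DNAJC11 ranged from -0.21 to -0.07 over the 3 populations and was not called. A list of mitochondrial import and proteolysis genes outside the members had 16 of 23 on the array, of which 2 fell in membrane granulosa, 3 in antral granulosa and none in theca, and none rose, against 12.9%, 16.1% and 2.85% of all genes called lower. They were SPG7, a membrane protease, and GRPEL2, an exchange factor of HSPA9, in membrane granulosa (-0.63 with adjusted p = 0.00451 and -0.54 with adjusted p = 0.00616). In antral granulosa they were TOMM22, an import receptor, GRPEL2, and the protease CLPP (-0.91, -0.61 and -0.39, with adjusted p of 0.000129, 0.00217 and 0.0427).

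Among the small heat shock proteins, HSPB1 had the largest LH difference. It was 14.43, 14.28 and 13.64 in membrane granulosa after LH, against 12.61, 13.02 and 12.53 before LH. In antral granulosa it was 14.41, 14.42 and 14.23 after LH, against 13.63, 13.45 and 13.29 before LH, and in theca 13.52, 13.37 and 12.98 after LH, against 12.50, 12.65 and 12.62 before LH. In all 3 populations the groups did not overlap.

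HSPB1 rose by 1.40 ± 0.20 in membrane granulosa (adjusted p = 8.78e-05), 2.63-fold, and by 0.90 ± 0.20 in antral granulosa (adjusted p = 0.00328). In theca 0.70 ± 0.20 was not called (adjusted p = 0.0644); with cow C dropped the difference was 0.85 and called (adjusted p = 0.00731), as it was with the cow as a random block (0.0468) and with trend and robust settings (0.049). In cows A and B after LH, HSPB1 lay within 0.24 to 0.43 of the brightest value on the granulosa arrays, and differences from such levels can be understated. A much dimmer second probe set gave -0.28 (adjusted p = 0.311) in membrane and 0.15 (adjusted p = 0.615) in antral granulosa, so the probe sets of HSPB1 disagree. With their mean the rises were 0.56 and 0.53, still called (adjusted p = 0.00858 and 0.012).

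HSPB2, best known from muscle, was 6.14, 5.42 and 5.71 in membrane granulosa after LH, against 5.32, 4.82 and 5.23 before LH. It rose by 0.63 ± 0.20 there (adjusted p = 0.0372) with no overlap. That call was lost without cow A, C, F or G (adjusted p = 0.0744 to 0.211) and with each array centred on its median (adjusted p = 0.0533), or only the 6 arrays compared (0.121). HSPB8, a partner of BAG3 in selective autophagy, had differences of -0.02 ± 0.31, -0.03 ± 0.31 and -0.31 ± 0.31 in membrane granulosa, antral granulosa and theca, none called. HSPBAP1 ranged from -0.21 to -0.01 over the 3 populations and was not called. HSPB6 had a difference of -0.07 ± 0.28 in theca (adjusted p = 0.952), and HSPB6 in granulosa and HSPB3 everywhere had group means near or below 4.62, were not called and are given no size.

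The remaining 10 members are class C J-proteins with single tasks, and DNAJC9 had the steepest called fall in both granulosa populations by the brightest probe set of each gene. DNAJC9, a histone chaperone that recruits HSP70, was 6.96, 7.23 and 7.15 in membrane granulosa after LH, against 8.61, 8.83 and 8.70 before LH. In antral granulosa it was 7.16, 7.18 and 7.17 after LH, against 9.19, 9.10 and 9.01 before LH. The cows of a group lay close together, and the groups were over 1 log2 unit apart.

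DNAJC9 fell by 1.60 on the log2 scale in membrane granulosa (-1.60 ± 0.14, adjusted p = 1.01e-06) and by 1.93 in antral granulosa (-1.93 ± 0.14, adjusted p = 1.25e-07), a 3.81-fold lower signal. In theca it was 7.58, 7.79 and 7.19 after LH and 7.75, 7.66 and 7.97 before LH, with overlap (-0.28 ± 0.14, adjusted p = 0.384).

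DNAJC12, a J-protein that helps fold aromatic amino acid hydroxylases, was 7.38, 7.01 and 6.95 in membrane granulosa after LH, against 5.90, 5.96 and 5.44 before LH. In antral granulosa it was 7.29, 7.19 and 7.36 after LH, against 5.93, 6.26 and 5.94 before LH. All granulosa values after LH lay above all those before LH. DNAJC12 rose by 1.34 ± 0.18 in membrane granulosa (adjusted p = 5.52e-05), 2.54-fold, and by 1.24 ± 0.18 in antral granulosa (adjusted p = 0.000101), and in theca its difference was 0.38 ± 0.18 (adjusted p = 0.325). DNAJC5, DNAJC7, DNAJC13, DNAJC17, DNAJC24 and DNAJC27 were not called, with log2 differences from -0.33 to 0.39 over the 3 populations. DNAJC6 and DNAJC22 were not called either, and no size is given for them, since their group means lay below 4.62.

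Partners of these chaperones that are no members were looked up in a list of heat shock factors and HSP70 and HSP90 co-chaperones, with 27 of 28 on the array. In membrane granulosa 5 rose and none fell (median 0.06), in antral granulosa 5 rose and 5 fell (median 0.05), and in theca none was called (median 0.00). The 5 higher are 18.5% of the list in either population, against 13.1% of all genes in membrane and 12.6% in antral granulosa, and the 5 lower in antral granulosa are 18.5%, against 16.1%. ST13, which holds HSP70 in its ADP state, averaged 12.66 in membrane granulosa after LH and 11.22 before LH (1.45 ± 0.13, adjusted p = 1.24e-06), and it rose by 1.61 ± 0.13 in antral granulosa (adjusted p = 2.93e-07). BAG3, the exchange factor that works with HSPB8, averaged 10.58 in membrane granulosa after LH and 8.81 before LH (1.77 ± 0.23, adjusted p = 4.25e-05). It rose by 1.44 ± 0.23 in antral granulosa (adjusted p = 0.000245).

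FKBP5, a co-chaperone of steroid receptors, was at least 0.93 higher in membrane granulosa after LH (adjusted p = 0.000788), since it was below 4.62 on all arrays before LH there. PTGES3, the HSP90 co-chaperone p23, fell in antral granulosa (-0.67 ± 0.12, adjusted p = 0.000938). Of the 14 of 16 listed subunits of the TRiC chaperonin and of prefoldin, 1 fell in membrane granulosa, 1 in antral granulosa and none in theca, and none rose, with 1 of 14 being 7.14%, against 12.9% and 16.1% of all genes called lower. They were the prefoldin subunits PFDN4, at least 0.43 lower in membrane granulosa (adjusted p = 0.0108), and PFDN5 in antral granulosa (-0.69 ± 0.22, adjusted p = 0.0362).

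The question of the series is whether LH acts differently on granulosa and theca, and the difference in LH effect was tested directly, theca minus membrane granulosa, with the cow as a block. Of the members 2 were called with a positive difference and 4 with a negative one (median -0.04), against 4.56% and 4.57% of all probe sets, a median of 0.03, and 5.66% and 5.96% of all genes. DNAJC9 had a difference of 1.32 ± 0.20 (adjusted p = 0.00154) and HSPA5 one of 0.84 ± 0.21 (adjusted p = 0.0282). The negative differences were those of DNAJB5 (-1.52 ± 0.33, adjusted p = 0.0123), DNAJA3 (-1.27 ± 0.25, adjusted p = 0.00774), DNAJC12 (-0.96 ± 0.25, adjusted p = 0.0296) and HSP90AA1 (-0.62 ± 0.15, adjusted p = 0.0185). Each of these 6 genes therefore had the larger LH difference in membrane granulosa.

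The calls of HSPA5, DNAJB5, DNAJA3, DNAJC12 and HSP90AA1 were each lost on dropping any of several single cows, which also leaves fewer cows to test. HSPA5 was not called without cow A, B, D or G (adjusted p = 0.0643 to 0.155), nor without the block (adjusted p = 0.262). DNAJB5 was not called without cow A, B or G (0.0505 to 0.0818), and with the mean of its probe sets was -0.82 and called (0.0234). DNAJA3 was not called without A or B (0.0501 and 0.0594), DNAJC12 without A, C, D or G (0.0682 to 0.156), and HSP90AA1 without A, C, D or G (0.053 to 0.117) or with the mean of its probe sets (0.487), all as adjusted p. For HSPB1, DNAJB6 and DNAJA1 the difference was -0.70 ± 0.21, -0.62 ± 0.19 and -0.86 ± 0.27 and was not called (adjusted p = 0.0536, 0.0687 and 0.0726). Of the genes outside the members, HERPUD1 had a difference of 1.86 ± 0.22 (adjusted p = 0.000312), SIL1 of 1.22 ± 0.29 (adjusted p = 0.02), ST13 of -1.26 ± 0.16 (adjusted p = 0.000456) and BAG3 of -1.11 ± 0.28 (adjusted p = 0.0258). These genes were picked for a small adjusted p in the LH comparisons, membrane granulosa among them, which favours such a difference.

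Between antral and membrane granulosa no difference in LH effect was called for any member (median -0.10), nor for any of the 24016 probe sets, 0% in either direction. At an unadjusted p below 0.05, limma gave 1 of the 47 members and 9.31% of all probe sets. The member with the smallest adjusted p was HSPB1, at -0.50 (adjusted p = 0.512).

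Theca and membrane granulosa of the same cow also differed at each time. After LH 6 members were called higher in theca and 11 lower, at a median of -0.07, where 11.4% of all probe sets were called higher and 14.4% lower at a median of -0.02, and 15.7% of all genes each way. Before LH 6 were again called higher and 11 lower, at a median of -0.12, against 15.4% and 18.9% of all probe sets, a median of -0.07, and 21.1% and 19.3% of all genes. Over both times 25 members were called, 9 of them at both times.

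The small heat shock protein HSPB8 had the largest positive difference at both times, followed by HSPB6 after LH and by DNAJC12 before LH. HSPB8 was 7.97, 8.35 and 7.20 in theca after LH, against 5.20, 5.85 and 6.12 in membrane granulosa of the same cows. Before LH it was 7.51, 8.35 and 8.58 in theca, against 5.80, 5.53 and 5.92 in membrane granulosa. Theca was higher in all 6 cows, by 1.08 (cow C) to 2.82 (cow F), and HSPB8 differed by 2.12 ± 0.31 after LH (adjusted p = 0.000454) and by 2.40 ± 0.31 before LH (adjusted p = 8.05e-05).

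HSPB6, a small heat shock protein of smooth muscle, was 6.83, 6.71 and 5.65 in theca after LH, against 4.32, 4.59 and 4.52 in membrane granulosa, all below 4.62. Before LH it was 6.38, 6.93 and 6.09 in theca, against 4.87, 4.52 and 4.91 in membrane granulosa. HSPB6 was at least 1.77 higher in theca after LH (adjusted p = 0.000271), and 1.70 ± 0.25 higher before LH (adjusted p = 0.000253). HSPB2 was higher in theca by 0.50 ± 0.17 after LH (adjusted p = 0.0471) and by 0.58 ± 0.17 before LH (adjusted p = 0.019). The later HSPB2 call was lost on dropping cow A, B, C or G (0.0618 to 0.27), without the block (0.105), and with quantile normalization, median centring or trend and robust settings (0.0612, 0.0769 and 0.0604). The earlier one was lost on dropping cow F, with a difference of 0.34 (0.162), or G (0.078).

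HSPA12B, a distant HSP70 relative known from endothelium, was 5.39, 5.46 and 5.35 in theca after LH, against 4.35, 4.50 and 4.62 in membrane granulosa. Before LH it was 5.09, 6.07 and 4.67 in theca, against 4.57, 4.38 and 4.47 in membrane granulosa. It was at least 0.77 higher in theca after LH (adjusted p = 0.0115) and at least 0.65 higher before LH (adjusted p = 0.0164). The later call was lost without cow A (adjusted p = 0.113) or B (adjusted p = 0.1), and the earlier one without cow F, the highest in theca, where the fitted difference was 0.36 (adjusted p = 0.155), against 0.80 fitted with all cows.

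Markers of other cell types lay higher in theca too. The summed level of 6 endothelial markers was 10.14 to 10.83 in theca after LH against 7.13 to 8.08 in membrane granulosa, where VWF, KDR and TIE1 were below 4.62, and 10.14 to 10.85 before LH against 6.97 to 7.66. That of 5 smooth muscle markers was 12.67 to 13.44 in theca after LH against 9.21 to 10.96 in membrane granulosa, and 13.40 to 14.28 before LH against 9.51 to 10.67. That of 6 fibroblast markers was 15.15 to 15.51 in theca after LH against 12.65 to 14.25 in membrane granulosa, and 14.82 to 15.28 before LH against 11.21 to 13.08. That of 5 leukocyte markers was 9.55 to 10.63 in theca after LH against 8.29 to 9.08 in membrane granulosa, and 9.29 to 10.20 before LH against 8.60 to 8.74, and that of 4 red cell markers was 5.81 to 6.33 on all arrays. KDR was below 4.62 on all 18 arrays. The part of these cell types in the theca levels of HSPB6, HSPB8, HSPB2 and HSPA12B was not tested.

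HSPE1 was higher in theca at both times, with 11.84, 12.12 and 12.20 after LH, against 10.47, 10.61 and 11.72 in membrane granulosa. Before LH it was 12.86, 12.47 and 12.41 in theca, against 11.60, 11.79 and 11.62 in membrane granulosa. Every theca value was above every membrane value, and HSPE1 differed by 1.12 ± 0.18 after LH (adjusted p = 0.000928) and by 0.91 ± 0.18 before LH (adjusted p = 0.00185). For HSPD1 the difference was called at neither time.

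DNAJC12 was higher in theca by 1.01 ± 0.17 after LH (adjusted p = 0.00136) and by 1.97 ± 0.17 before LH (adjusted p = 8.53e-06), in all 6 cows. Its theca values were 8.17, 8.41 and 7.78 after LH and 7.85, 7.59 and 7.76 before LH. Membrane granulosa thus stayed below theca after its rise.

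DNAJA4 had the largest negative difference before LH. It was 7.58, 7.56 and 8.19 in theca after LH, against 8.83, 8.78 and 8.70 in membrane granulosa, and 7.81, 7.32 and 7.29 in theca before LH, against 8.94, 9.08 and 8.95 in membrane granulosa. Theca was lower in all 6 cows, with a difference of -0.99 ± 0.17 after LH (adjusted p = 0.00145) and of -1.52 ± 0.17 before LH (adjusted p = 3.9e-05). DNAJC27, a Rab-like protein with a J domain, was lower in theca, with differences of -0.84 ± 0.18 after LH (adjusted p = 0.00404) and -0.67 ± 0.18 before LH (adjusted p = 0.0103). The later DNAJC27 call was lost on dropping cow A (0.0524) or B (0.083), and the earlier one on dropping cow F (0.121) or G (0.0627).

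Of the 9 chaperones and J-proteins of the endoplasmic reticulum, none was called between theca and membrane granulosa after LH (median -0.06), where 15.7% of all genes were called lower. Before LH 6 were called lower in theca (median -0.49), where 19.3% of all genes were. The change between the times was called for HSPA5 alone. It was not called for HSP90B1, DNAJB11, DNAJC10, DNAJC14 and DNAJC18, at 0.53, 0.68, 0.42, 0.37 and 0.11 with adjusted p of 0.176, 0.101, 0.141, 0.373 and 0.753. For HSPA5, theca minus membrane granulosa was -0.06 ± 0.15 after LH (adjusted p = 0.836), with cow B higher and cows A and C lower in theca. Before LH it was -0.90 ± 0.15 (adjusted p = 0.00058), with theca lower in each of the 3 cows. HSP90B1 (-0.55 ± 0.16, adjusted p = 0.0146), DNAJB11 (-0.59 ± 0.17, adjusted p = 0.0147), DNAJC14 (-0.60 ± 0.16, adjusted p = 0.00978) and DNAJC18 (-0.31 ± 0.11, adjusted p = 0.0427) were lower before LH. So was DNAJC10, a disulfide reductase that clears misfolded proteins (-0.49 ± 0.11, adjusted p = 0.00492).

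Without cow G the calls of DNAJB11 and DNAJC14 were lost (adjusted p = 0.108 and 0.122), and that of HSP90B1 was lost without cow D or G (0.0701 and 0.071). That of DNAJC18 was lost on dropping any cow other than C (0.0713 to 0.164) and without the block (0.0839). In the list of other genes of this compartment, 3 of 25 were called lower in theca and 2 higher after LH, and 12 lower (48%) and 1 higher before LH. Of all genes 15.7% were called each way after LH, and 19.3% lower and 21.1% higher before LH. The difference in LH effect of the listed genes was called in 8, with 7 positive (28%) and 1 negative (4%). Of all genes 5.66% were called positive and 5.96% negative. As said above, this list was chosen with earlier results of these data known.

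**Figure D4:**
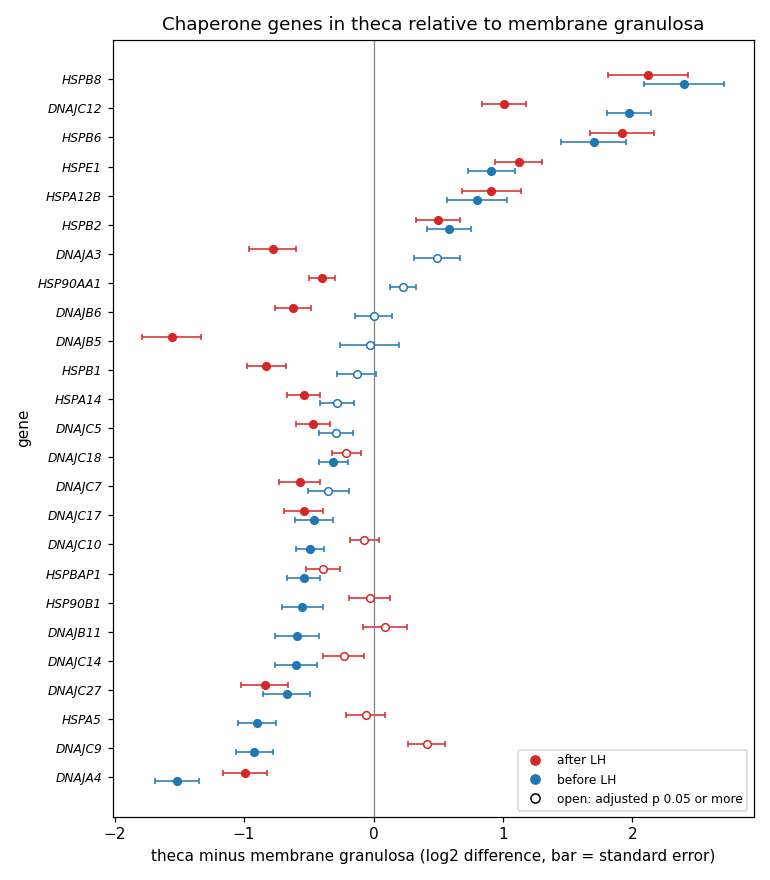
Log2 difference, theca minus membrane granulosa of the same cows, for the 25 members called at either time, after LH (red) above before LH (blue), with standard errors of 3 cows; open points were not called, and members below the dim limit in membrane granulosa are drawn as fitted. HSPB8, HSPB6, DNAJC12 and HSPE1 lie right of 0 at both times, DNAJA4 left of it, while HSPA5 has a filled point left of 0 for before LH and DNAJB5 for after LH.

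DNAJB5, DNAJB6, DNAJA3, HSP90AA1 and HSPB1 were called lower in theca after LH and not before LH. Their differences after LH were -1.56 ± 0.23 for DNAJB5 (adjusted p = 0.000572), -0.62 ± 0.14 for DNAJB6 (adjusted p = 0.00545), -0.78 ± 0.18 for DNAJA3 (adjusted p = 0.00702), -0.40 ± 0.10 for HSP90AA1 (adjusted p = 0.0135) and -0.83 ± 0.15 for HSPB1 (adjusted p = 0.00145). With the mean of their probe sets DNAJB5 and HSPB1 differed by -0.83 and -0.46, still called (0.00128 and 0.00432). HSP90AA1 was not called without cow A, B or C (adjusted p = 0.0531 to 0.149) or with the mean of its probe sets (0.24), DNAJA3 not without cow A or B (0.0827 and 0.115), and DNAJB6 not without cow A (0.0993). DNAJC9 averaged 7.52 in theca and 7.11 in membrane granulosa after LH, which was not called (0.41 ± 0.14, adjusted p = 0.0559). Before LH it was lower in theca, at 7.80 against 8.71 in membrane granulosa (-0.92 ± 0.14, adjusted p = 0.000346).

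HSPA14, DNAJC5, DNAJC7, DNAJC17 and HSPBAP1 made up the other calls. HSPA14 (-0.54 ± 0.13, adjusted p = 0.0107), DNAJC5, the cysteine string protein of vesicles (-0.47 ± 0.13, adjusted p = 0.0173), and DNAJC7, a co-chaperone of both HSP70 and HSP90 (-0.57 ± 0.16, adjusted p = 0.0218), were lower in theca after LH. The theca and membrane values of DNAJC5 and DNAJC7 overlapped, and without the block they were not called (adjusted p = 0.258 and 0.282). On dropping cow A neither was called (0.201 and 0.191), nor DNAJC5 without cow C (0.0577) or with the mean of its probe sets (0.0931), nor DNAJC7 without cow B (0.167) or after quantile normalization (0.0609). HSPA14 was not called without cow A (0.152) or B (0.0994), or with the mean of its probe sets (0.0593). DNAJC17 was lower after LH (-0.54 ± 0.15, adjusted p = 0.0182) and before LH (-0.46 ± 0.15, adjusted p = 0.0298), calls lost without the block (0.0651 and 0.0907), the later one also without cow A (0.167) and the earlier one without cow D (0.161) or F (0.182). HSPBAP1 was lower before LH (-0.54 ± 0.13, adjusted p = 0.00758), a call lost without cow F (0.0976) or G (0.0551).

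Few members were called between antral and membrane granulosa. After LH no member was called higher in antral granulosa and 2 were called lower (median -0.07), against 1.43% and 1.57% of all probe sets, a median of 0.05, and 1.16% and 2.25% of all genes. Before LH 1 was called higher and 1 lower (median 0.08), against 0.687% and 1.09%, a median of 0.04, and 1.05% and 1.53% of all genes. DNAJC10 was lower in antral granulosa at both times. It was 9.78, 9.86 and 10.22 there after LH, against 10.53, 10.36 and 10.62 in membrane granulosa, and 10.35, 10.28 and 10.29 before LH, against 10.99, 10.81 and 10.92. In the same contrast 4 of 6 fibroblast markers were called lower in antral granulosa after LH (median -2.35) and 4 before LH (median -2.52), and 2 of 5 smooth muscle markers at each time. Of 5 theca markers 1 was called lower after LH and 3 before LH (median -2.51). The part of these markers in the differences of DNAJC10, HSPA5 and HSPB1 was not tested.

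DNAJC10 differed by -0.55 ± 0.11 after LH (adjusted p = 0.0313) and by -0.60 ± 0.11 before LH (adjusted p = 0.0252), with no overlap at either time. Neither of its other probe sets was called in this contrast, with differences from -0.45 to -0.10, and with their mean DNAJC10 was not called at either time (-0.34 with adjusted p = 0.111 after LH and -0.49 with adjusted p = 0.0533 before LH). HSPA5 was lower in antral granulosa after LH (-0.65 ± 0.15, adjusted p = 0.0419) in all 3 cows, though the values overlapped between cows. HSPB1 was higher in antral granulosa before LH, at 13.63, 13.45 and 13.29 against 12.61, 13.02 and 12.53 in membrane granulosa (0.73 ± 0.15, adjusted p = 0.0281). Without the block none of these 4 differences was called, with adjusted p of 0.0761 and 0.0851 for DNAJC10 after and before LH, 0.203 for HSPA5 and 0.115 for HSPB1. After quantile normalization the later DNAJC10 and HSPA5 calls were lost (adjusted p = 0.0563 and 0.0834). The 4 calls were also lost on dropping any of several single cows, which leaves fewer cows to test. Adjusted p was 0.0548 to 0.297 for DNAJC10 after LH on dropping cow A, B, C or D, and 0.0551 to 0.179 before LH on dropping any cow but C. For HSPA5 it was 0.0633 to 0.314 on dropping cow A, B, C or D, and for HSPB1 0.0583 to 0.206 on dropping cow A, B, D or G.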

How the data were processed

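RNA of 18 samples was measured on Affymetrix 3' expression arrays. Per the submitters' processing notes, RMA in Partek 6.5 gave the deposited log2 signals per probe set. Its settings are not given in the sources used here. They ran from 2.29 to 14.90, with array medians from 5.74 to 5.86 and correlations of 0.97 to 0.99 within groups. Precision is limited by the number of arrays.

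Of 24128 entries 112 controls were left out. Of 24016 probe sets 13292 have 1 symbol, 86 several and 10638 none in GEO's platform table, which can be old. The 47 members have 74 probe sets, and 46 of their gene IDs matched the RefSeq table (ARS-UCD2.0, used for names only). No coordinates or sequences are given.

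In limma 3.58.1 (R 4.3.3), LH effects had 1 mean per group, and contrasts within follicles had a fixed term for the cow. The pairing comes from the cow letters in the labels, and was checked: same-cow arrays correlated at -0.02 to 0.69 after removing group means, with 17 of 18 pairs over 0.1. Across LH the same number is another cow (-0.17 to 0.23). The LH fits left the shared cows out and treated the 18 arrays as independent. Their p-values thus assume more independent arrays than 6 cows give. The 8005 dimmest probe sets average below 4.62. Where all arrays of a group did so, the difference is a bound ("at least"). The fits were tested on simulated data with only 50 changed probe sets of each size. In the data 5041 were called for LH in membrane granulosa. Fewer changes make the adjustment stricter, and extra spread between cows was added, so the shares found can differ from those in the data. An added difference of 1 was found in 10% for LH in membrane granulosa and 20% for LH in theca. It was found in 54% for theca minus membrane granulosa after LH and 16% for the difference in LH effect. An added difference of 2 was found in 82% to 96%. False calls were 11 of 111 for LH in theca and 2 of 101 for LH in membrane granulosa. They were 7 of 136 for theca minus membrane granulosa after LH and 5 of 108 for the difference in LH effect. A gene that was not called can still have changed.

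The members, gene lists and tests were chosen with earlier results of these data known. Named were a fixed set of principal members (of which DNAJB4 has no probe set here), every member called for LH, up to 10 each way, the 5 largest each way for the other contrasts, and up to 3 genes per list and LH contrast with the smallest adjusted p. The remaining called members, and DDIT3 and PDIA5 as the exceptions of their list, were named after their values were seen. Alternatives were other normalizations, filters, probe set rules, blocks, eBayes settings, a 2-fold minimum and each cow left out. Figures were drawn with matplotlib 3.10.9 in Python 3.11.15.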

Additional observations from a re-analysis of the deposited data

Results flagged for a closer look

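The LH effect of 6 members differed between theca and membrane granulosa in the test of the difference itself (limma, cow as block, adjusted over 24016 probe sets, n = 3 cows a group). Theca minus membrane granulosa, this difference was -0.62 ± 0.15 for HSP90AA1 (adjusted p = 0.0185), -1.52 ± 0.33 for DNAJB5 (adjusted p = 0.0123) and -1.27 ± 0.25 for DNAJA3 (adjusted p = 0.00774). It was -0.96 ± 0.25 for DNAJC12 (adjusted p = 0.0296), 0.84 ± 0.21 for HSPA5 (adjusted p = 0.0282) and 1.32 ± 0.20 for DNAJC9 (adjusted p = 0.00154). The granulosa marker sum fell with LH in the membrane arrays, unequally for its single genes, and its part in these differences was not tested.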

How the results depend on the processing

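No called result changed its direction under any alternative. Of 70 called differences of single members, 19 kept their call under every alternative run, and 51 lost it under at least 1. With the 2-fold minimum 47 lost it, since that minimum by definition takes away any call below 1 log2 unit. Of 47 that were not called, 11 were called under at least 1. The counts of called members that moved by more than 1.5 times were these. With a 2-fold minimum, 6 members were called for LH in membrane granulosa, 5 in antral granulosa and 0 in theca. That minimum left 5 between theca and membrane granulosa after LH and 4 before, 0 between antral and membrane granulosa at either time, and 3 for the difference in LH effect. For LH in theca, 2 members were called with eBayes trend and robust settings, 2 with the replicate block, 2 with the cow as a random block, and 0 with only the 6 arrays compared. Between antral and membrane granulosa before LH, 4 were called with eBayes trend and robust settings, 1 with the mean of all probe sets and 0 without the cow block. After LH 1 was called with quantile normalization and 0 without the cow block. Leaving out 1 cow at a time gave 9 to 15 for LH in membrane granulosa, 8 to 15 in antral granulosa and 0 to 3 in theca. It gave 7 to 19 between theca and membrane granulosa after LH and 10 to 18 before, 0 to 3 between antral and membrane granulosa after LH and 0 to 2 before, and 1 to 6 for the difference in LH effect. The replicate numbers pair no cows between the times; the replicate block for LH effects gained 3 calls (HSPA5 and HSPE1 in membrane granulosa, adjusted p = 0.0038 and 0.047, and HSPB1 in theca, 0.0205) and lost none, while taking the cow block out of 44 within-follicle results lost 11. The cause of these shifts was not tested, beyond the fewer cows when 1 is left out. Signals near 4.62 limit HSPB3, DNAJC22, DNAJC6, HSPA12B and HSPB6.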

Other observations

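As a description over 18 arrays, which share cows and cell populations, the genes outside the members whose log2 signal was most like that of HSPA5 were MESD (Pearson's r 0.927), TBL2 (0.918), CLDN12 (0.905), ADAM9 (0.905) and EMC3 (0.902), among 9108 genes. Those most like HSPA1A were FAM107A (0.908), TMEM70 (0.905), COQ2 (0.898), MAD2L1 (0.888) and HADHB (0.876). DNAJC6, the clathrin-uncoating J-protein auxilin, was above 4.62 only in the 3 arrays of cow C after LH, at 5.09 in membrane granulosa, 4.95 in antral granulosa and 4.63 in theca. It was below that limit on the other 15 arrays.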
